A study of Mus musculus with 6 samples.

Results

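Secreted and membrane-bound metalloproteinases and their inhibitors were followed in RNA from whole mouse ovaries. The set held every gene in the count table whose GENCODE M21 protein-coding symbol is Adamts, Mmp or Timp followed by a number: 45 of 55487 genes, made up of 19 ADAMTS genes, 22 matrix metalloproteinase (MMP) genes and 4 tissue inhibitors of metalloproteinases (TIMPs). ADAMTS-like genes were left out, and so was Mmp1a, annotated as a polymorphic pseudogene and at 0 counts in all libraries. The libraries came from 3 wildtype samples and 3 samples of GalTKO mice (genotype GalT-/-), all at postnatal day 49. Both genotypes had eaten a diet with 2.5% galactose, begun at weaning and kept up for 4 weeks, so no group without galactose enters the comparison. All samples carry the same strain label, cbl/6-ola/129, a mixed background. The labels name neither litter, estrous stage nor the number of animals per sample, so the p-values rest on how far these 6 samples spread, which may be technical. The enzyme lacking in classic galactosemia, galactose-1-phosphate uridylyltransferase, is the product of Galt, and the series asks how follicular stress and survival differ without it.

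ADAMTS and MMP proteins are zinc proteases that cut the extracellular matrix, and TIMPs bind and block their catalytic sites. In the ovary they are known for the remodelling around growing follicles, for the opening of the follicle wall at ovulation and for the growth and regression of the corpus luteum. Adamts1 is the best known of the ADAMTS genes there: the surge of luteinizing hormone raises it through the progesterone receptor, and its product cuts versican in the matrix around the cumulus cells. Mmp14, anchored in the membrane, activates the Mmp2 product together with Timp2. Several MMPs come mainly from leukocytes, among them Mmp12 (macrophage elastase), Mmp8 (neutrophil collagenase) and Mmp25 (leukolysin), and leukocytes also make Mmp9, a gelatinase.

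Total gene counts ran from 19232486 to 25729564 per library. Galt had 380 to 445 counts per wildtype library and 0 to 6 per GalTKO library, a difference in the direction of the labels. Mitochondrial genes took 1.37% to 1.97% of counts in wildtype and 2.22% to 3.53% in GalTKO libraries, without overlap, and their part in the results below was not tested. Levels are given below as CPM, gene counts divided by library size and scaled for composition by TMM, and 3 values in a row follow the order of replicates 1, 2 and 3. The low-count filter was passed by 33 of the 45 genes: 17 ADAMTS, 12 MMP and 4 TIMP genes. In 29 of them all 6 libraries reached the filter's level of 0.422 CPM, while Mmp25 passed it through the wildtype libraries alone. The granulosa, luteal and oocyte marker genes were present in all 6 libraries, as the ovary label requires: summed levels were 6026 to 7388 CPM for 12 granulosa genes, 10071 to 24033 CPM for 11 luteal genes and 239.6 to 365.1 CPM for 12 oocyte genes.

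Promoter sequence divides these genes, and the sequences of 4 MMPs that recur in the results are shown here for that reason. Of the 45 genes, 31 had a RefSeq promoter window (GRCm38.p6, 250 bases before to 50 after a transcript start). Windows were searched on either strand for TGANTCA, the sequence that AP-1 (Fos and Jun proteins) binds. The GC box, also on either strand, was taken as GGGCGG. The TATA box was taken as TATAAA on the gene's strand. AP-1 and TATA letters occurred together in 7 genes, against 0.995% of all 32851 windows. All 7 belong to the 9 MMP genes that sit side by side on chromosome 9 between 7272514 and 7699585 (GRCm38): Mmp13, Mmp12, Mmp1b, Mmp3, Mmp10, Mmp20 and Mmp7 have both, Mmp8 and Mmp27 do not. None of the 22 other genes with a window has both. A GC box was found in 18 of the 31 genes and in 35.7% of all windows. A match describes letters, not a site in use. The windows below run from 180 bases before to 20 bases from the start, 5′ to 3′ on the gene's strand, with the motif letters in capitals (CCGCCC is the GC box read on the other strand).
Mmp12 (chr9:7347194-7347393, plus strand, the downstream of 2 RefSeq starts; AP-1, then TATA): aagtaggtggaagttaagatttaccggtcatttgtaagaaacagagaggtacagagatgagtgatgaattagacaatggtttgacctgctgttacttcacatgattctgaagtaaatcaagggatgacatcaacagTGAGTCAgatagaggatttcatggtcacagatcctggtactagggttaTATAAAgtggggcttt
Mmp13 (chr9:7272334-7272533, plus strand; AP-1, then TATA): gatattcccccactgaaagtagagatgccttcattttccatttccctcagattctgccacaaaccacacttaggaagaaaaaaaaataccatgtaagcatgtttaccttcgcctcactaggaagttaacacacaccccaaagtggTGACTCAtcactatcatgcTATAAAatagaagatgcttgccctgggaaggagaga
Mmp25 (chr17:23645250-23645449, minus strand; GC boxes): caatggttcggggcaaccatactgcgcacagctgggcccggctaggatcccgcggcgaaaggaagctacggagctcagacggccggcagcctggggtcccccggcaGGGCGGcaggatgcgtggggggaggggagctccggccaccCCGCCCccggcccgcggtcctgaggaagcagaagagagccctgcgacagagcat
Mmp15 (chr8:95352116-95352315, plus strand; GC box): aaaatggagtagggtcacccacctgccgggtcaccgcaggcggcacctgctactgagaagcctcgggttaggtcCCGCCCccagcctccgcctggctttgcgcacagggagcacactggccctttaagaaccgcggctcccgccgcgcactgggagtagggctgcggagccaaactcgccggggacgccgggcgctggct
The AP-1 letters begin 44 bases before the Mmp12 start and 35 bases before the Mmp13 start. In Mmp13 the TATA letters begin 16 bases before the start, whereas in Mmp12 they lie past it, inside the transcript. In the other Mmp12 window, upstream, none of the 3 motifs was found.

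Per length of exon, a few genes made up most of the RNA of these families. The 5 highest, Timp1, Timp2, Mmp11, Mmp2 and Timp3, held 68.7% of the summed level per length (CPM per kilobase of exon, mean of 6 libraries), and the 10 highest held 90.2%. Timp2 averaged 92.1 ± 14.8 CPM per kilobase in wildtype ovaries (SD, n = 3) and Mmp11, stromelysin-3, 68.3 ± 14.1. Timp1 and Mmp2, the type IV collagen-cutting gelatinase, followed at 64.2 ± 15.2 and 59.1 ± 2.76. Each of these 4 overlapped its neighbour in the order, though Timp2 lay above Mmp2 in all 3 wildtype libraries. Timp3, the inhibitor that stays bound to matrix, had 51.9 ± 3.62 and Mmp14 38.6 ± 1.92. Adamts2, which trims the N-propeptide off fibrillar procollagens, led the ADAMTS genes at 29.7 ± 2.25, above Adamts1 at 12.6 ± 1.99. Mmp15, a membrane-type MMP, had 17.4 ± 3.41 and Mmp23 13.6 ± 0.884. The remaining tested genes lay below 10 CPM per kilobase in both genotypes. Lengths are the merged exons of GENCODE M21, which may differ from the lengths behind the deposited counts. The Mmp11 level may also depend on whether counting used strand, because its exons overlap those of Chchd10 on the opposite strand.

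**Figure D1:**
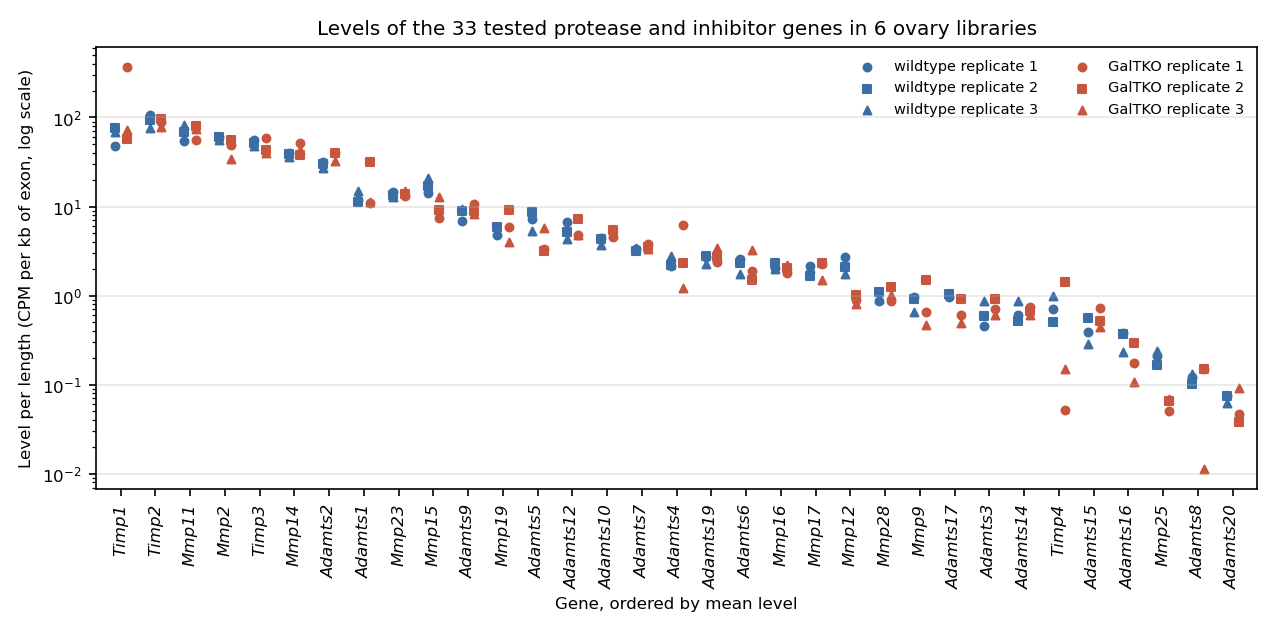
Level per length (CPM per kilobase of exon, log axis) of the 33 tested genes in each of the 6 libraries, ordered by their mean; symbols mark replicates 1 to 3, blue wildtype and red GalTKO. Timp1 in GalTKO replicate 1 stands far above its other 5 libraries, and Timp4 falls to its lowest values in GalTKO replicates 1 and 3.

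Between genotypes, 2 of the 33 tested genes changed, Mmp12 and Mmp25, both lower in GalTKO ovaries, and the 31 others did not pass (quasi-likelihood test of edgeR with Benjamini-Hochberg adjustment, threshold 0.05). Across all 16957 genes tested, 2.55% passed in either direction, 1.43% lower and 1.13% higher. Without adjustment, 7 of the 33 (21.2%) had a p under 0.05, near the 17.1% of all genes. Of these 5 were lower (Mmp12, Mmp25, Mmp15, Adamts5, Adamts17) and 2 higher (Adamts2, Adamts10), against 8.9% and 8.19% of all genes. The 3 values of one genotype lay wholly above those of the other for 7 genes (21.2%), against 23.7% of all genes, 12% with GalTKO below and 11.8% with GalTKO above. The median log2 fold change (GalTKO over wildtype) was 0.04 for the 33 genes and 0.02 for all genes, with 14 negative and 19 positive. Calls after adjustment made up 6.06% of the 33 genes, all of them lower, against 2.55% of all genes in either direction and 1.43% lower. That difference rests on 2 genes, of which Mmp25 passed the filter through the wildtype libraries alone. Another tool moved the count of calls: DESeq2 called 4 of them lower, adding Mmp15 and Adamts5, where it called 6.16% of all genes, and limma voom called Mmp12 alone, where it called 3.12%. With no filter on low counts edgeR called the same 2 genes, where 2.83% of all genes were called.

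**Figure D2:**
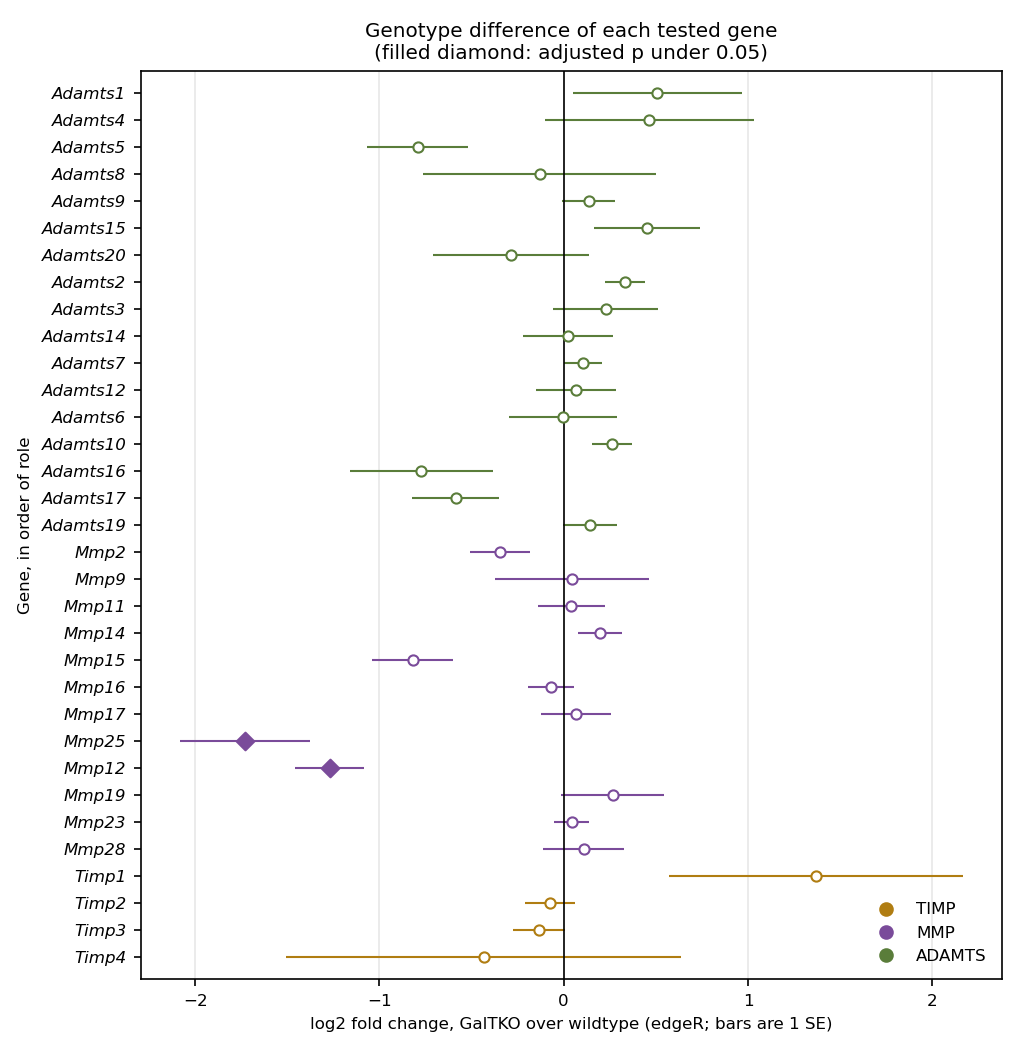
The log2 fold change of GalTKO over wildtype (x axis) with 1 SE either side for each of the 33 tested genes (y axis), ordered by role and coloured by family. Filled diamonds are the genes with an adjusted p under 0.05, Mmp12 at -1.27 and Mmp25 at -1.73, both on the lower side.

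Mmp12 encodes macrophage elastase, which cuts elastin (ENSMUSG00000049723; GRCm38 chromosome 9, 7344381 to 7369499, plus strand). It stood at 19.5, 15.2 and 12.7 CPM in wildtype, against 6.46, 7.33 and 5.83 CPM in GalTKO libraries. Every GalTKO library lay below every wildtype library. Mean levels were 15.8 ± 3.45 and 6.54 ± 0.755 CPM (SD, n = 3), and Mmp12 fell 2.41-fold, a log2 fold change of -1.27 ± 0.19 (SE; edgeR adjusted p = 0.013). With a library left out the value ran from -1.41 to -1.09, and without wildtype replicate 2 it missed the threshold (-1.30, edgeR adjusted p = 0.0543). The annotated exons overlap those of Mmp1b on the opposite strand, but Mmp1b had 3 counts in all, in wildtype replicate 3.

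Macrophage marker genes were compared in the same libraries. Of 15 marker genes, all tested, 14 had a negative log2 fold change, against 46.6% of all genes. Of the 15, 6 fell, against 1.43% of all genes called lower: Mpeg1, Ctss, Csf1r, Lyz2, C1qb and Cd163. With each library left out in turn, Ctss and Mpeg1 kept their call in all 6 fits. Csf1r, C1qb and Lyz2 lost it in 4 of 6, among them those without wildtype replicate 1, wildtype replicate 2 or GalTKO replicate 1. Cd163 lost it in 5 of 6, and among protein-coding genes alone. The median over the 15 genes was -0.65, and their summed level was 507.9 to 607.7 CPM in wildtype and 332.7 to 368.0 CPM in GalTKO libraries. In a whole organ, fewer cells of a type and less RNA per cell cannot be told apart. Mmp12 was set against these markers library by library. Per 1000 CPM of summed macrophage markers it had 33.2, 25.0 and 25.0 CPM in wildtype, then 17.9, 19.9 and 17.5 CPM in GalTKO libraries. The groups did not overlap on that scale either, at 27.7 ± 4.74 and 18.5 ± 1.29 (SD, n = 3; exact permutation test, two-sided p = 0.10, the smallest that 3 against 3 allows). The test cannot reach 0.05 and Mmp12 had already been called, so these values are a description, and the part of macrophages in the Mmp12 value was not tested.

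Mmp25 encodes leukolysin, a membrane-type MMP held by a lipid anchor and known from neutrophils (ENSMUSG00000023903; chromosome 17, 23628311 to 23645277, minus strand). Counts were low: 28, 21 and 29 in wildtype and 7, 8 and 7 in GalTKO replicates 1 to 3, or 1.12, 0.888 and 1.26 CPM and 0.271, 0.345 and 0.364 CPM. The groups did not overlap, and Mmp25 fell by 1.73 ± 0.35 on the log2 scale (SE, n = 3 per group; edgeR adjusted p = 0.045). It entered the test through its wildtype counts alone, so a gene at its GalTKO level in both genotypes would not have been tested. The call was lost with any 1 library left out, with adjusted p from 0.0622 to 0.167, while the log2 fold change stayed between -1.86 and -1.60. It was lost too under limma voom (adjusted p = 0.0625), among protein-coding genes alone (edgeR, 0.0579) and with the replicate number as a block (edgeR, 0.0991).

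A further leukocyte gene, Mmp8, lay under the filter with 28 wildtype and 7 GalTKO counts. It had 6, 12 and 10 counts in wildtype and 1, 5 and 1 in GalTKO replicates 1 to 3, so no GalTKO library reached the lowest wildtype count. The ratio of wildtype to GalTKO counts per total was 3.76 (95% interval 1.6 to 10.2, exact binomial, counting error only). In the edgeR fit with no filter, which takes in the spread between samples, Mmp8 was not called. Neutrophil markers were scarce: of 10 genes 3 were at 0 in every library and 1 passed the filter, Ltf, lactoferrin, which glands also make. Summed, the list reached 1.88 to 12.6 CPM in wildtype and 0.820 to 1.41 CPM in GalTKO libraries, nearly all of it Ltf in wildtype replicates 2 and 3. Mmp9, also made by leukocytes, was not called, with a log2 fold change of 0.05 ± 0.42 (SE, edgeR adjusted p = 0.97). That value was -0.59 without GalTKO replicate 2, so its direction is not settled. The part of neutrophils in the values of Mmp8 and Mmp25 was not tested.

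**Figure D3:**
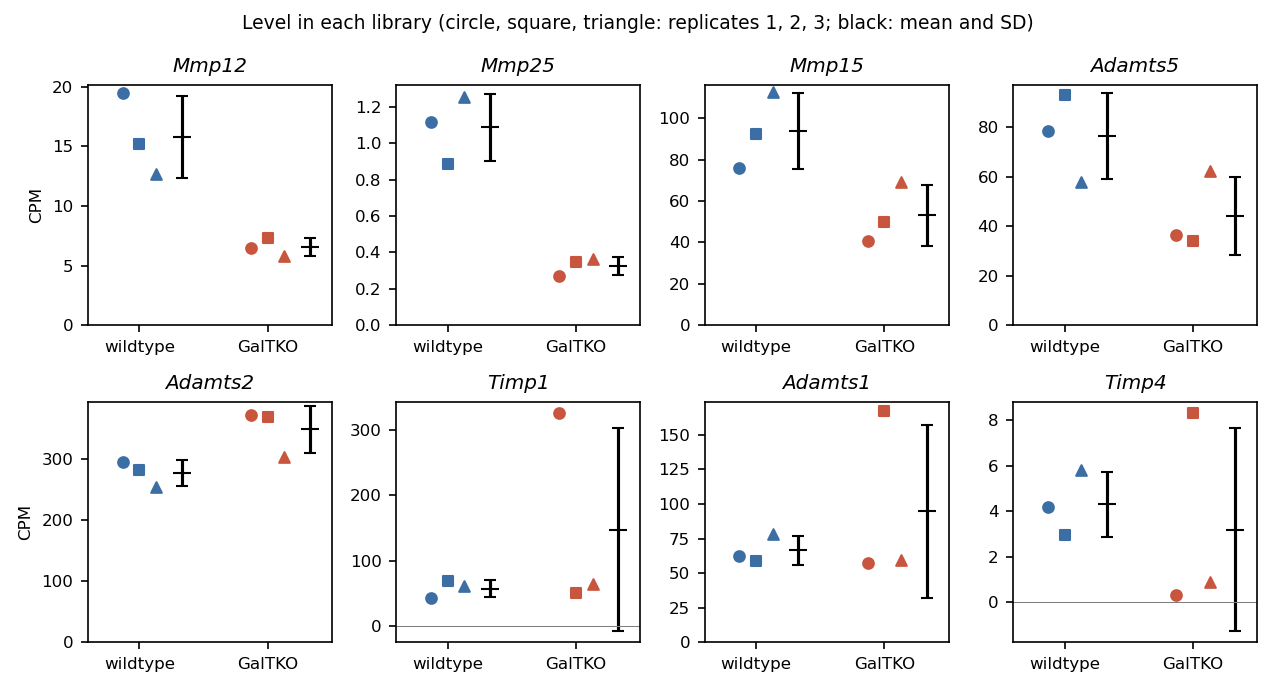
Level in CPM (y axis, linear) of 8 genes in each library, with circle, square and triangle for replicates 1, 2 and 3 of each genotype and the mean with SD in black. Mmp12, Mmp25, Mmp15 and Adamts2 separate by genotype. In contrast, Timp1 and Adamts1 are set by single GalTKO libraries, and Timp4 is split within the GalTKO group.

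The other membrane-type MMPs were Mmp14 to Mmp17 and Mmp24. Mmp15 had 75.9, 92.6 and 112.7 CPM in wildtype, against 40.6, 49.7 and 69.4 CPM in GalTKO libraries (ENSMUSG00000031790; chromosome 8, 95352268 to 95375080, plus strand). All GalTKO libraries were below all wildtype libraries, yet the log2 fold change of -0.82 ± 0.22 (SE) did not pass (edgeR adjusted p = 0.125). It passed without GalTKO replicate 3 (-1.05, edgeR adjusted p = 0.0476; 1.85% of all genes called), with the replicate number as a block (edgeR, 0.0102; 1.89% of all genes called) and under DESeq2 (adjusted p = 0.00537). Mmp14 averaged 230.1 ± 11.4 CPM without and 263.7 ± 42.8 CPM with the knockout (SD, n = 3), and the groups overlapped. Mmp16, Mmp17 and the short membrane protease Mmp23 had log2 fold changes of -0.07 ± 0.12, 0.07 ± 0.19 and 0.04 ± 0.10 (SE). Mmp24 was under the filter with 14 and 19 counts.

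Among the gelatinases, Mmp2 (ENSMUSG00000031740; chromosome 8, 92827291 to 92853420, plus strand) had 205.5, 203.2 and 188.4 CPM in wildtype, against 166.4, 187.4 and 115.7 CPM in GalTKO libraries. The groups did not overlap, although GalTKO replicate 2 came close to the lowest wildtype value, and the log2 fold change was -0.35 ± 0.16 (SE; edgeR adjusted p = 0.335). GalTKO replicate 3 was also lowest in the summed level of 10 stromal fibroblast markers, at 2150 CPM. The other 2 GalTKO libraries had 2589 and 3638 CPM and the wildtype libraries 2871 to 3224 CPM; the part of stroma in the Mmp2 value was not tested. Mmp9, the gelatinase of leukocytes and migrating cells, had 2.34 to 3.44 CPM in wildtype, against 2.32, 5.31 and 1.67 CPM in GalTKO libraries. Its log2 fold change of 0.05 ± 0.42 (SE) became -0.59 without GalTKO replicate 2.

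Collagenases and stromelysins, apart from Mmp11, had few counts. Mmp1b, Mmp3 and Mmp20 had 3, 4 and 1 counts over all 6 libraries, Mmp21 had 0, and Mmp27 had 30. Mmp10, stromelysin-2, had 5, 1 and 0 counts in wildtype and 10, 4 and 2 in GalTKO replicates 1 to 3, a ratio of wildtype to GalTKO counts per total of 0.352 (95% interval 0.113 to 0.948, exact binomial, counting error only). Of the 9 genes in the chromosome 9 row, only Mmp12 passed the filter. Mmp13, the main rodent interstitial collagenase, had 10, 10 and 14 counts in wildtype and 76, 4 and 2 in GalTKO replicates 1 to 3. The ratio was 0.389 (0.253 to 0.588), but the GalTKO total came almost wholly from replicate 1, and the other 2 GalTKO libraries were below wildtype. Neither Mmp10 nor Mmp13 was called in the edgeR fit with no filter. Mmp7, matrilysin of epithelia, had all its 14 counts in wildtype replicate 2. That library also held 20.3 CPM of Ovgp1, the oviduct secretory protein gene, against 0.0431 to 0.800 CPM in the others. Of the 8 oviduct and ciliated epithelium markers 2 were highest in wildtype replicate 2 and 6 in other libraries, and the part of oviduct tissue in the Mmp7 counts was not tested. Mmp11 did not separate, at 189.6 ± 39.1 and 194.9 ± 35.2 CPM (SD, n = 3; log2 fold change 0.04 ± 0.18, SE). Its exons overlap those of Chchd10 on the opposite strand, which has a similar number of counts. Whether counting used strand is not stated by the sources, so how far the overlap enters the Mmp11 value cannot be told. Mmp19 and the epithelial Mmp28 had log2 fold changes of 0.27 ± 0.28 and 0.11 ± 0.22 (SE).

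Of the 17 tested ADAMTS genes 0 passed in edgeR, and 4 (23.5%) reached 0.05 before adjustment, against 17.1% of all genes. DESeq2 called 1 of them, Adamts5, where it called 6.16% of all genes. Of these 17 limma voom called 0, where it called 3.12% of all genes. Adamts5, an aggrecan- and versican-cutting protease (ENSMUSG00000022894; chromosome 16, 85856173 to 85901828, minus strand), had 78.4, 92.8 and 57.9 CPM in wildtype, against 36.4, 33.8 and 62.3 CPM in GalTKO libraries. GalTKO replicate 3 lay among the wildtype values and the other 2 below them. The log2 fold change was -0.79 ± 0.27 (SE; edgeR adjusted p = 0.217), and without GalTKO replicate 3 it was -1.12 and passed (edgeR adjusted p = 0.047). The summed level of 11 luteal markers was 17912, 18847 and 24033 CPM in wildtype and 11876, 10071 and 17251 CPM in GalTKO replicates 1 to 3. GalTKO replicate 3 was nearest to wildtype, as in Mmp15 and Adamts5, a likeness seen after the values were known. Within wildtype, replicate 3 had the highest luteal sum and the highest Mmp15 level, but the lowest Adamts5 level. The sum rests mostly on Cyp11a1 and Hsd3b1, and single luteal genes varied otherwise. Of the 11 genes 9 had their highest GalTKO value in replicate 3, while Sfrp4, Ptgfr and Akr1c18 were far lower in GalTKO replicate 2 than in the other 2, and Parm1 was highest there (genes named after their values were seen). Fold changes were negative in 10 of 11, against 46.6% of all genes. Of these Ptgfr and Sfrp4 were close to 0, at -0.03 ± 0.51 and -0.14 ± 0.83, while Akr1c18 had 0.53 ± 0.92 (log2 fold change, SE). Star passed by itself, a call lost in 4 of 6 fits with a library left out. Star, Cyp11a1, Hsd3b1 and Fdx1 also belong to the theca and steroidogenic list, so the luteal list does not stand for luteal tissue alone. The part of luteal tissue in the values of Adamts5 and Mmp15 was not tested.

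Adamts1 (ENSMUSG00000022893; chromosome 16, 85793827 to 85803113, minus strand) had 62.2, 59.0 and 78.7 CPM in wildtype, against 57.4, 167.2 and 59.4 CPM in GalTKO libraries. GalTKO replicate 2 stood above all others, and the remaining GalTKO libraries lay close to the lowest wildtype value. Its log2 fold change of 0.51 ± 0.46 (SE; edgeR adjusted p = 0.646) became -0.19 without that library. Adamts4, the other well-known aggrecanase, instead peaked in GalTKO replicate 1. It had 10.4, 10.7 and 13.3 CPM in wildtype, against 30.1, 11.3 and 5.88 CPM in GalTKO libraries. The log2 fold change of 0.47 ± 0.57 became -0.42 without GalTKO replicate 1. Adamts9 and Adamts15, further proteoglycan-cutting members, had 0.14 ± 0.14 and 0.45 ± 0.29 (log2 fold change, SE), and Adamts8 and Adamts20 stayed under 1 CPM in every library.

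Procollagen-cutting and fibrillin-linked ADAMTS genes did not pass. Adamts2 (ENSMUSG00000036545; chromosome 11, 50602084 to 50807573, plus strand) had 295.1, 281.5 and 253.9 CPM in wildtype, against 371.9, 369.6 and 303.7 CPM in GalTKO libraries. The groups did not overlap, with GalTKO replicate 3 close to the highest wildtype value. The log2 fold change of 0.33 ± 0.11 (SE) did not pass (edgeR adjusted p = 0.173). Its procollagen-cutting relatives Adamts3 and Adamts14 had 0.23 ± 0.29 and 0.02 ± 0.24. Adamts10, whose product binds fibrillin microfibrils, had 36.5, 35.9 and 30.4 CPM in wildtype, against 37.9, 44.6 and 40.9 CPM in GalTKO libraries, also without overlap (log2 fold change 0.26 ± 0.11, SE; edgeR adjusted p = 0.27). Its relative Adamts6 had -0.01 ± 0.29. Adamts17 had 7.40, 8.16 and 8.10 CPM in wildtype, against 4.76, 7.16 and 3.80 CPM in GalTKO libraries. Its groups did not overlap (log2 fold change -0.59 ± 0.24, SE; edgeR adjusted p = 0.255), and it passed without GalTKO replicate 2 (-0.88, edgeR adjusted p = 0.0406). Adamts16 had -0.77 ± 0.39, and Adamts7, Adamts12 and Adamts19 lay between 0.07 and 0.14. Adamts13, the protease of von Willebrand factor, had 4 counts in 1 wildtype library, and Adamts18 had 12 and 23 counts.

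Of the 4 TIMP genes 0 passed in edgeR, DESeq2 or limma voom, and 0 reached 0.05 before adjustment in edgeR. Timp1 (ENSMUSG00000001131; chromosome X, 20870166 to 20874735, plus strand) had 42.0, 68.1 and 60.9 CPM in wildtype, against 326.7, 51.1 and 63.5 CPM in GalTKO libraries. GalTKO replicate 1 was the exception, and the other GalTKO libraries lay among the wildtype values. The log2 fold change was 1.37 ± 0.80 (SE; edgeR adjusted p = 0.464) with that library and 0.01 without it. Timp4 (ENSMUSG00000030317; chromosome 6, 115241892 to 115252205, minus strand) was split within the GalTKO group. It had 4.16, 2.96 and 5.80 CPM in wildtype, against 0.310, 8.33 and 0.885 CPM in GalTKO libraries. Without GalTKO replicate 2 it was called lower (log2 fold change -2.90, edgeR adjusted p = 0.021), where 4.26% of all genes were called, while all 6 libraries gave -0.44 ± 1.07. Exons of Timp4 overlap the synapsin gene Syn2 on the opposite strand, which had 48 to 85 counts per library and did not share this split. Timp2 and Timp3 had -0.08 ± 0.13 and -0.13 ± 0.14 (log2 fold change, SE).

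Summed per length, the inhibitors stood apart in 1 library. TIMP genes together gave 209.2, 223.6 and 194.3 CPM per kilobase in wildtype and 514.0, 198.6 and 190.1 in GalTKO replicates 1 to 3. Timp1 made up 71.6% of the sum in GalTKO replicate 1 and 22.6% to 37.6% in the others. MMP genes summed to 197.8, 214.3 and 221.4 in wildtype and 191.8, 214.3 and 190.0 in GalTKO replicates 1 to 3, overlapping groups. The ratio of summed MMP to summed TIMP level was 0.945 to 1.14 in wildtype, and 0.373, 1.08 and 0.999 in GalTKO replicates 1 to 3. ADAMTS genes summed to 78.6 to 82.5 in wildtype and 91.8, 109.4 and 81.2 in GalTKO replicates 1 to 3.

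**Figure D4:**
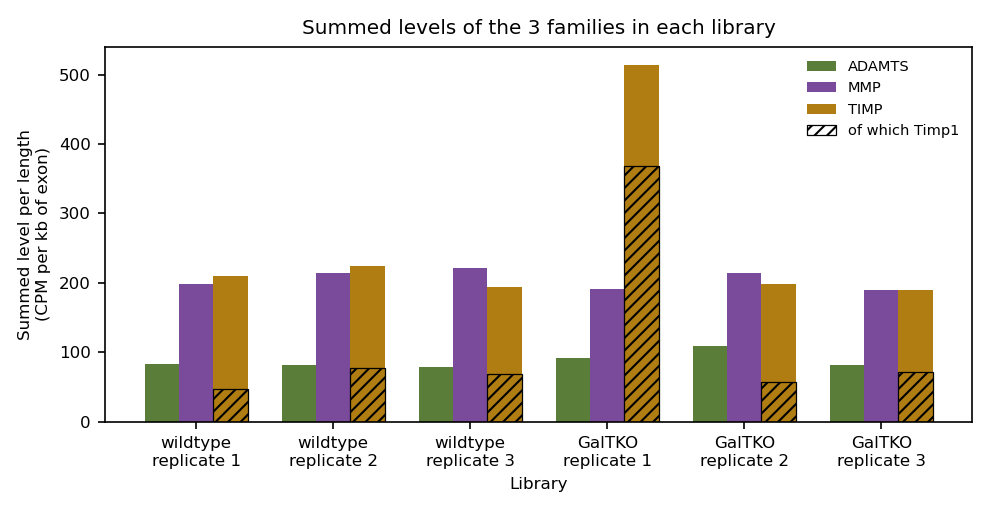
Summed level per length (CPM per kilobase of exon) of the ADAMTS, MMP and TIMP genes in each library, with the hatched part of the TIMP bar showing Timp1. TIMP reaches 514.0 in GalTKO replicate 1 and stays between 190.1 and 223.6 in the other 5 libraries, whereas MMP stays between 190.0 and 221.4.

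The GalTKO libraries differed from each other more than the wildtype libraries did. The SD of log2 CPM within a genotype was larger in GalTKO for 23 of the 33 genes, with a median of 0.35 against 0.22 in wildtype. The same held across all tested genes, at 0.204 against 0.145, so the direction is shared with the genome. Taking a library as apart where it exceeded the next by more than 1.5-fold, GalTKO replicate 1 stood above the rest in Adamts4 and Timp1 and below them in Timp4. GalTKO replicate 2 stood above in Adamts1, Mmp9 and Mmp19, and GalTKO replicate 3 below in Adamts4, Adamts8 and Adamts16. No wildtype library stood apart in any tested gene by this measure. GalTKO replicate 1 was also highest in Tnfaip6, which links hyaluronan in the cumulus matrix, at 3.87 CPM against 0.840 to 1.35 CPM in the others. Tnfaip6 was singled out after its values were seen.

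**Figure D5:**
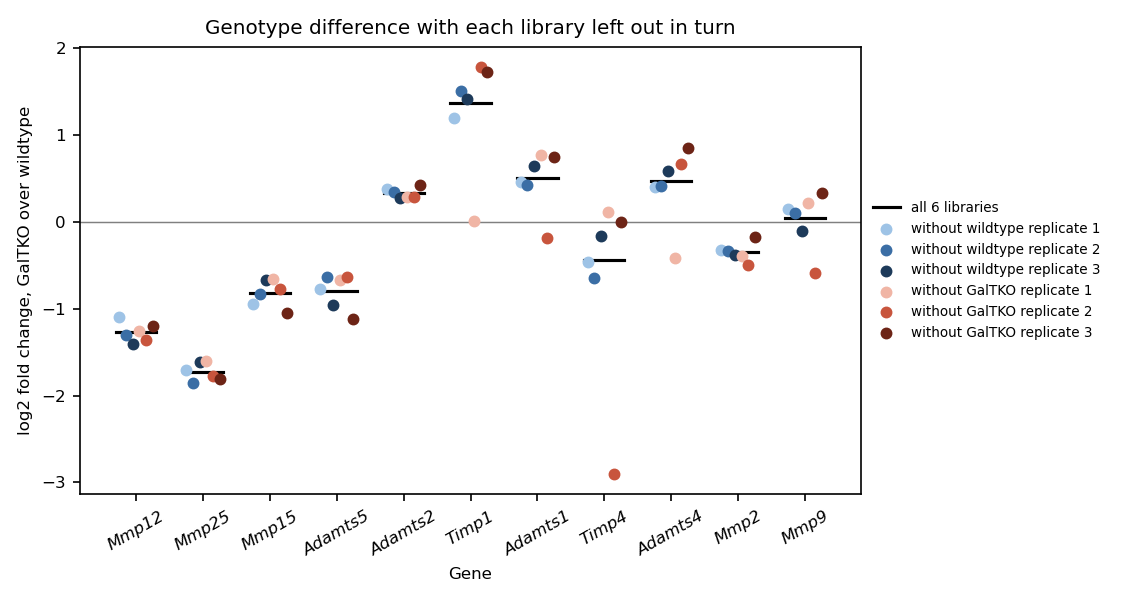
The log2 fold change of GalTKO over wildtype (y axis) for 11 genes (x axis) with all 6 libraries (black line) and with each library left out (points). Mmp12, Mmp25, Mmp15, Adamts5, Adamts2 and Mmp2 keep their sign, while Timp1 drops to 0.01 without GalTKO replicate 1, Adamts1 to -0.19 without GalTKO replicate 2 and Timp4 to -2.90 without GalTKO replicate 2.

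Substrates and partners of these proteases were followed in the same fit. Of 16 tested genes of the proteoglycan and hyaluronan matrix 15 did not pass, and the median log2 fold change was -0.12. The remaining 1 fell (6.25%), against 1.43% of all genes called lower. The one was Fmod, fibromodulin, which binds collagen fibrils, at 17.9, 17.9 and 18.4 CPM in wildtype, against 9.48, 10.1 and 9.11 CPM in GalTKO libraries (log2 fold change -0.91 ± 0.11, SE; edgeR adjusted p = 0.0054). Bcan and Has3 had -0.75 ± 0.17 and -0.58 ± 0.20 and did not pass. Of 13 fibrillar and basement membrane collagens 1 rose (7.69%), against 1.13% of all genes called higher. This was Col4a6, which went from 22.8 ± 0.970 to 31.1 ± 0.562 CPM (SD, n = 3). The median log2 fold change of the 13 was 0.03. Each of these 2 shares rests on 1 gene. The Col4a6 call was lost in 5 of 6 fits with a library left out, whereas that of Fmod was kept in all 6. None of 6 tested genes of the plasminogen activator system, 10 of other inhibitors, activators and uptake receptors, 4 ADAMTS-like genes, 10 ADAM proteases or 8 genes that luteinizing hormone drives at ovulation passed in edgeR. Before adjustment these lists had, in that order, 0, 2, 1, 0 and 3 genes with a p under 0.05, against 17.1% of all genes. Among the genes of smallest p in these lists were A2m, a protease-trapping plasma protein, at 0.89 ± 0.26 (edgeR adjusted p = 0.133), Adamtsl2 at 0.60 ± 0.25, Plat, tissue plasminogen activator, at 0.32 ± 0.14, and Pcsk6, a proprotein convertase, at -0.33 ± 0.13. In the list of the ovulatory response they were Cited4 at -0.49 ± 0.16, Runx2 at -0.88 ± 0.28 and Rgs2 at 0.52 ± 0.22 (log2 fold change, SE). Over all pathway and marker lists DESeq2 called 34 genes and limma voom 19, against 16 in edgeR.

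Other cell types of the ovary were compared through their markers. Endothelial genes were negative in 10 of 10, against 46.6% of all genes, with a median of -0.39. Kdr and Pecam1 fell, against 1.43% of all genes called lower. Kdr kept its call whichever of the 6 libraries was left out, and Pecam1 lost it in 5 of the 6 fits and among protein-coding genes alone. Of 10 smooth muscle and pericyte genes 1 fell, Rgs5, and of 10 surface epithelium genes 1 rose, Krt8. In the list of 12 granulosa genes Amh and Slc18a2 rose and Nr5a2 fell. Across all genes 1.43% were called lower and 1.13% higher. With a library left out the calls of Krt8 and Nr5a2 were lost in 5 of 6 fits, those of Amh and Slc18a2 in 3 and that of Rgs5 in 1, and Krt8 and Nr5a2 also missed among protein-coding genes alone. None of 10 stromal fibroblast, 12 oocyte, 4 tested oviduct or 6 tested lymphocyte genes passed in edgeR. Before adjustment 1, 3, 1 and 1 of them were under 0.05, or 10%, 25%, 25% and 16.7%, against 17.1% of all genes. Star was also the single call among 8 theca and steroidogenic genes.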

How the data were processed

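Total RNA of 6 mouse ovary samples was sequenced after removal of ribosomal RNA, with a stranded kit, per the labels' protocols. The authors deposited raw counts per Ensembl gene for 6 libraries, whole numbers without normalization. Per the submitters' processing notes, cutadapt 1.16, STAR 2.7.6a, featureCounts 1.6.3, DESeq2 1.30.1 and GRCm38 were used; their settings, the annotation release, the use of strand and the treatment of multi-mapping reads are not given there. Of the 45 genes, 13 have exons that overlap another gene's on the opposite strand, so their values depend on that setting.

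Names, types, coordinates and merged exon lengths came from GENCODE M21 (55227 of 55487 identifiers matched). Genotypes came from the sample titles. No libraries agreed within sampling noise (chi-square per degree of freedom at least 8.81). Counts were filtered with filterByExpr (minimum count 10, minimum total 15), scaled by TMM and tested on all 6 libraries with edgeR 4.0.16 (robust quasi-likelihood, genotype as the only term, R 4.3.3). Benjamini-Hochberg adjustment ran over all 16957 genes tested, at 0.05, two-sided. The SE is the log2 fold change divided by the square root of F. The test was checked on simulated data. Promoter windows are RefSeq's. Intervals are exact binomial at 95% and cover counting error only.

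The members and the 19 gene lists (7 of pathways, 12 of cell markers, 196 genes) were chosen with earlier results of these data known. Members past the filter were named by rule, those with an unadjusted p under 0.05 in full; of each list, called genes and up to 3 with the smallest p. Alternatives were upper-quartile scaling, scaling by median of ratios, DESeq2 1.42.0, limma 3.58.1 voom with quality weights, no filter, 1 CPM in 3 libraries, protein-coding genes only, a block for replicate number, leaving out each library, and an adjusted p of 0.1. Figures and tables used matplotlib 3.10.9, numpy 2.4.6, pandas 2.3.3 and scipy 1.17.1 under Python 3.11.15.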

Additional observations from a re-analysis of the deposited data

How the results depend on the processing

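Across 459 refits of single genes, 17 of the 33 tested genes kept their sign under every alternative that gave a value. All genes called moved from 433 to 1044 with DESeq2, 877 without a filter, 260 among protein-coding genes, 761 at an adjusted p of 0.1 and 165 to 742 with a library left out. Of the protease and inhibitor genes, 2 became 4 with DESeq2, 1 with limma voom, 1 with the stricter filter, 1 among protein-coding genes and 0 to 3 with a library left out. List genes called moved from 16 to 34 with DESeq2, 29 without a filter and 5 to 27 with a library left out. Galt kept its call throughout.

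Samples that share a replicate number deviated together only weakly, with correlations of 0.09, -0.04 and 0.08. With 3 samples per group these values cannot settle whether the number pairs them. With the replicate block 321 genes passed, 15 of them list genes, and 2 protease and inhibitor genes, Mmp12 and Mmp15 in place of Mmp25. Samples numbered 1 and 3 correlated best with their own number and those numbered 2 did not, a hint from the data and not from the design.

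Signs turned in genes that were not called. Under limma voom Adamts12, Mmp9 and Mmp28 were at -0.089, -0.36 and -0.002; Adamts6 was at 0.021 with upper-quartile scaling and 0.002 among protein-coding genes; Mmp9 was at -0.091 with the replicate block. With a library left out the ranges crossed 0 for Adamts1 (-0.19 to 0.77), Adamts4 (-0.42 to 0.85), Adamts6 (-0.39 to 0.21), Adamts8 (-0.48 to 0.35), Adamts12 (-0.16 to 0.25), Adamts14 (-0.14 to 0.26), Adamts19 (-0.02 to 0.25), Mmp9 (-0.59 to 0.34), Mmp11 (-0.11 to 0.19), Mmp16 (-0.14 to 0.007), Mmp17 (-0.035 to 0.24), Mmp19 (-0.10 to 0.51), Mmp23 (-0.008 to 0.092), Mmp28 (-0.047 to 0.23), Timp2 (-0.19 to 0.034) and Timp4 (-2.90 to 0.11). Fits with a library left out have fewer samples; otherwise the cause was not tested. The median of all genes was 0.02 with TMM, 0.016 with median-of-ratios and 0.043 with upper-quartile scaling. Genes with few counts, such as Mmp8 and Mmp13, lay under the filter of the main fit. The edgeR fit with no filter took in every gene with counts and called neither.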
